A study of Mus musculus with 6 samples.

Results

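The genes described here are the colony-stimulating factor (CSF) ligands Csf1 and Il34 and the receptor chains Csf1r, Csf2ra, Csf2rb and Csf3r. They were chosen by name and make up 6 of the 32285 genes in each expression matrix, and each symbol stood on 1 row. The cells came from the left quadriceps of male, wild-type (WT) C57BL/6 mice aged 2 to 3 months, sampled at day 7. The uninjured group had no injury, the subcritical group a 2 mm defect and the critical group a 3 mm volumetric muscle loss (VML) defect. In each group, cells from 4 animals were marked with hashtag antibodies, pooled, stained with an antibody panel and run as 1 library, so that group and library cannot be told apart wherever cells could not be returned to their animal. The whole muscle was digested, not the defect alone. Expression was counted in unique molecular identifiers (UMIs, each standing for 1 captured transcript) from the 5′ end of transcripts.

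CSF1 and IL-34 are secreted ligands that share 1 receptor, CSF1R, a tyrosine kinase on which monocytes and tissue macrophages depend for survival and growth. GM-CSF, the product of Csf2, is bound by the alpha chain CSF2RA, which signals only together with the common beta chain CSF2RB, a chain that the IL-3 and IL-5 receptors use as well. Mice have a further beta chain, Csf2rb2, that works with the IL-3 receptor alone. G-CSF, the product of Csf3, acts through CSF3R, the main growth factor receptor of neutrophils. In muscle, the ligands are known to come mainly from connective tissue and vessels and the receptors to sit on the incoming leukocytes.

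After filtering, 2134 uninjured, 2755 subcritical and 2983 critical cells remained, from libraries of 4954129 to 7138662 UMIs. Clusters were formed without the CSF genes and named from markers of other genes, so classes carry "-like". Of the defining markers, C1qa was found in 89.8% of macrophage-like and 5.58% of other cells, Dcn in 94.4% of fibro-adipogenic progenitor (FAP)-like and 11.2% of other cells, and Pecam1 in 79.0% of endothelial-like and 5.10% of other cells. Hashtags returned 39.6% to 44.5% of a library's cells to an animal. That share was 92.7% and 93.1% for macrophage-like cells of the injured groups, but 5.18% to 6.99% for FAP-like cells, so stromal levels rest on 1 library per group. Cell makeup differed between libraries: endothelial-like cells were 60.6% of the uninjured and 19.8% of the critical library, and macrophage-like cells numbered 31 in the uninjured, 779 in the subcritical and 738 in the critical library. Between 10 and 16 cell barcodes were shared by each pair of libraries. Levels are given as CPM, the UMIs of a gene scaled to a fixed total of UMIs of a class in a library, with an exact Poisson 95% interval that covers counting error only.

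Promoters of the CSF genes are shown because the genes differed in the cell types that held most of their UMIs. RefSeq sequence (GRCm38.p6), 250 bases upstream of the start, was at hand for Csf1, Csf2ra and Csf3r among the 6 genes. Capitals mark GAGGAA (or TTCCTC on the other strand), the core bound by PU.1, the transcription factor of the myeloid lineage that Spi1 encodes.
Csf1, chr3:107760470-107760719, minus strand: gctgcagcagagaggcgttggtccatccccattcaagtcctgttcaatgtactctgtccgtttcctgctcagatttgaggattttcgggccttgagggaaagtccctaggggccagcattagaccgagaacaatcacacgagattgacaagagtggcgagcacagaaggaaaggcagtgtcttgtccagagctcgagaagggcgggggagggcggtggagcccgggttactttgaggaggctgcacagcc
Csf2ra, chr19:61228419-61228668, minus strand: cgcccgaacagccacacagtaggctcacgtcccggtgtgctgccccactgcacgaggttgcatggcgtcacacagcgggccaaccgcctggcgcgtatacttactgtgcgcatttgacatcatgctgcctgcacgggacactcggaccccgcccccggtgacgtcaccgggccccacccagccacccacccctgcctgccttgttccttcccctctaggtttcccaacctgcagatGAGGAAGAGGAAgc
Csf3r, chr4:126024409-126024658, plus strand: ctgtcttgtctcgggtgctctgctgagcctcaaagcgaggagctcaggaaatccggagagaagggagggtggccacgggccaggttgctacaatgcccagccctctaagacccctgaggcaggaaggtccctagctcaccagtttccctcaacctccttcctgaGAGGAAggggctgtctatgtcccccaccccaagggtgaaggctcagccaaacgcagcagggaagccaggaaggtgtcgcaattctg

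The Csf2ra stretch held the motif 2 times, directly one after the other, beginning 14 and 8 bases before the start. The Csf3r stretch held it 1 time, 86 bases before the start, and the Csf1 stretch held 0. Of 32851 mouse promoters of this length, 23.3% held it on either strand, so a match is a description of these letters only.

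Each gene had its own main sites, with overlaps. Csf1 was highest in uninjured FAP-like cells and in a venous-type endothelial cluster, Il34 in mural-like cells (pericytes and vascular smooth muscle), Csf1r in macrophage-like cells, Csf2ra in macrophage-like cells and a mixed unnamed leukocyte cluster, and Csf3r in neutrophil-like cells. Csf2rb was found in leukocytes and in the same venous-type endothelium. The plot of levels by class and library gives every value.

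**Figure D1:**
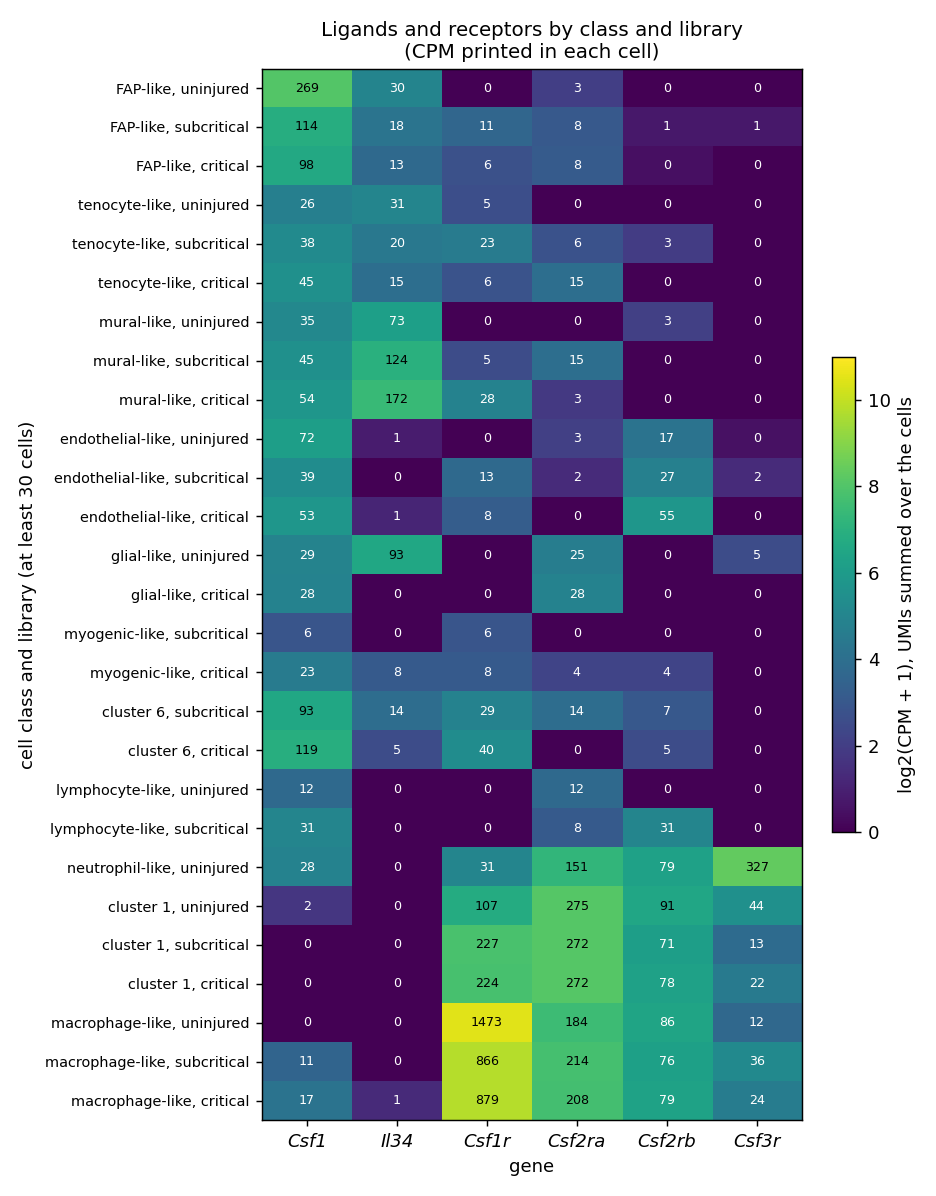
CPM of the 6 CSF genes (columns) in each cell class and library with at least 30 cells (rows), coloured by log2(CPM + 1). Csf1 stands mainly in the stromal and vascular rows. Il34 stands mainly in mural-like, glial-like and other stromal rows, with at most 1.21 CPM in endothelial-like rows. Csf1r, Csf2ra and Csf3r stand mainly in the leukocyte rows, with Csf1r at 866 and 879 CPM in macrophage-like cells of the injured libraries. Csf2rb stands in leukocyte and endothelial-like rows, at 54.6 CPM in critical endothelial-like cells.

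Csf1, the ligand that circulates and acts on most tissue macrophages, stood at 269 CPM in uninjured FAP-like cells (interval 230 to 313, 170 UMIs in 151 cells). In subcritical FAP-like cells it was 114 CPM (98.1 to 132) and in critical ones 98.1 CPM (86.5 to 111). Both injured libraries thus lay below the uninjured one with intervals far apart, while their own intervals overlapped. The log2 ratio was −1.45 (−1.74 to −1.17) for critical over uninjured, −1.23 (−1.55 to −0.93) for subcritical over uninjured and −0.22 (−0.50 to 0.06) for critical over subcritical. Csf1 UMIs were found in 45.0% of uninjured, 20.7% of subcritical and 24.4% of critical FAP-like cells. Thinned to 500 UMIs per cell, the expected shares were 11.5%, 5.48% and 5.13%, beside median depths of 3892, 2268 and 2987 UMIs. No test between the groups was run, since tagged FAP-like cells numbered 10, 34 and 55 and a minimum of 20 cells per animal was set.

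The 2 FAP-like clusters differed in Csf1 and were unequally shared among libraries. Cluster 11, led by C7, Inmt and Myoc, held 148 of the 151 uninjured cells, and cluster 15, led by H19, Ptn and Postn, held 3 of them but 464 subcritical and 623 critical cells. Within cluster 11, Csf1 was 264 CPM in uninjured, 192 in subcritical and 161 in critical cells. The log2 ratio to uninjured was then −0.45 (−0.91 to −0.02) in subcritical and −0.71 (−1.17 to −0.28) in critical cells, smaller than over the whole class. Cluster 15 stood at 87.7 CPM in critical cells, with a critical over subcritical log2 ratio of −0.11 (−0.45 to 0.22). The lower class level after injury therefore went with a lower level within cluster 11 and with many cells of cluster 15.

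Endothelial-like cells, which line the vessels, were the other large holder of Csf1. In these cells Csf1 was 71.6 CPM in the uninjured (179 UMIs, 61.5 to 82.9), 39.4 in the subcritical (25.5 to 58.1) and 53.4 in the critical library (38.8 to 71.7). The log2 ratio to uninjured was −0.85 (−1.53 to −0.25) for subcritical and −0.42 (−0.93 to 0.06) for critical cells. Cluster 9, led by the venous genes Selp and Ackr1, stood out with 236 CPM in the uninjured library (61 UMIs, 180 to 303) against 83.3 (38.1 to 158) in subcritical and 89.2 (44.5 to 160) in critical cells. Its log2 ratios to uninjured were −1.49 (−2.70 to −0.48) and −1.39 (−2.48 to −0.46), and critical over subcritical was 0.10 (−1.31 to 1.55). The capillary-type cluster 3, led by Car4, had 63.4 CPM in uninjured and 102 CPM in critical cells, from 82 and 9 UMIs. Csf1 was thus lower in venous-type cells of the injured libraries, from 9 subcritical and 11 critical UMIs in 1 library per group. No animal had at least 20 tagged cells of that cluster, so animals were not compared. In the other 3 endothelial clusters none of the ratios formed had an interval clear of 0. Clusters 3 and 2 gave only a critical over uninjured ratio, from 9 and 6 critical UMIs.

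Endothelial-like cells could be returned to 4 uninjured, 3 subcritical and 4 critical animals with at least 20 cells. Uninjured animals 1 to 4 had 78, 79, 60 and 43 Csf1 CPM, so 3 of them lay above every injured animal. Critical animals 1 to 4 had 48, 48, 18 and 38 CPM. Subcritical animals 1, 2 and 4 had 36, 50 and 0 CPM. The means were 64.8 ± 16.8 (SD, n = 4), 38.0 ± 14.3 (SD, n = 4) and 28.6 ± 25.7 CPM (SD, n = 3), and each injured group overlapped the uninjured one through uninjured animal 4. An exact two-sided permutation test gave p = 0.0857 for critical against uninjured (n = 4 and 4) and p = 0.114 for subcritical against uninjured (n = 3 and 4). Adjusted over the 12 such tests run, both became 0.343. The smallest p possible was 0.0286 with 4 against 4 animals and 0.0571 with 4 against 3. None of the 6 CSF genes passed the low-count filter of the fit across all endothelial genes, which tested 1813. For critical over uninjured it called 21% of them (11.9% higher, 9.1% lower), for subcritical over uninjured 16.3% (9.16% higher, 7.17% lower) and for critical over subcritical 0.717% (0.276% higher, 0.441% lower). These single-gene tests were added after the data had been seen.

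Among other cells, mural-like cells had 34.6, 44.5 and 53.8 Csf1 CPM in uninjured, subcritical and critical libraries, with overlapping intervals, and tenocyte-like cells 37.5 and 44.6 CPM in the injured ones. Unnamed cluster 6, low-depth cells with stromal genes, had 93.3 and 119 CPM there. Macrophage-like cells held little: 0 UMIs in 31 uninjured cells, 12 in 779 subcritical cells and 23 in 738 critical cells. Of the critical UMIs, 17 of the 19 in macrophage-like cluster 16 came from animal 2, which had 83 CPM there while animals 1 and 3 had 0 and animal 4 had 8.

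**Figure D2:**
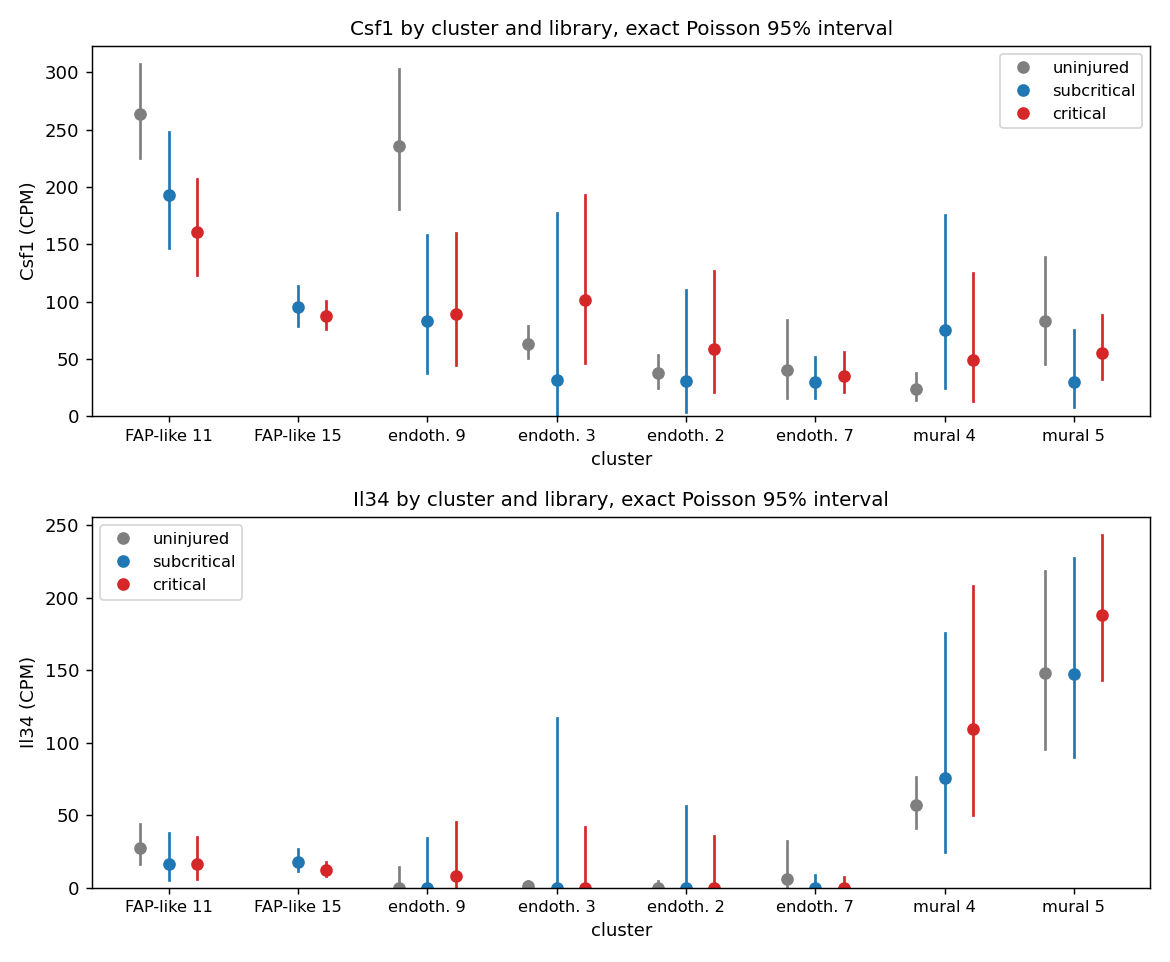
Csf1 (top) and Il34 (bottom) in CPM by stromal and vascular cluster, with points for libraries and lines for exact Poisson 95% intervals. Csf1 was highest in FAP-like cluster 11 and endothelial-like cluster 9 of the uninjured library (264 and 236 CPM), and Il34 in mural-like cluster 5 of all 3 libraries (148, 147 and 188 CPM).

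Il34, the ligand best known for microglia and Langerhans cells, reached its highest levels in injured mural-like cells among classes with at least 50 cells in a library. Mural-like cells had 73.5 CPM in the uninjured (68 UMIs, 57.1 to 93.1), 124 in the subcritical (25 UMIs, 80.1 to 183) and 172 in the critical library (67 UMIs, 133 to 218). The log2 ratio to uninjured was 0.74 (0.03 to 1.43) for subcritical and 1.21 (0.72 to 1.73) for critical cells. Critical over subcritical was 0.47 (−0.21 to 1.20), an interval that includes 0. Within clusters the ratios to uninjured were smaller. Pericyte-type cluster 5, led by Rgs5 and Kcnj8, had 148, 147 and 188 CPM in uninjured, subcritical and critical cells. Smooth muscle-type cluster 4, led by Pln and Myh11, had 56.8, 75.4 and 109 CPM, from 43, 5 and 9 UMIs. The critical over uninjured ratio was 0.34 (−0.35 to 1.08) in cluster 5 and 0.93 (−0.28 to 2.00) in cluster 4. Cluster 4 held 189 of 246 uninjured mural-like cells, but 52 of 157 subcritical and 57 of 215 critical ones. The parts of this makeup and of levels within clusters in the class ratio were not tested.

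Glial-like cells had 93.3 Il34 CPM in the uninjured library (19 UMIs in 111 cells) and 3 UMIs in 14 subcritical cells. The critical library had 0 UMIs in 35 glial-like cells, which allows a level of up to 84.8 CPM (3 counts), within the uninjured interval of 56.2 to 146. FAP-like cells had 30.1 CPM (18.1 to 46.9), 17.5 CPM (11.7 to 25.4) and 12.6 CPM (8.67 to 17.7) in uninjured, subcritical and critical libraries. The critical over uninjured log2 ratio was −1.19 (−2.11 to −0.36) and the subcritical one −0.74 (−1.67 to 0.15). Endothelial-like cells had 2, 0 and 1 Il34 UMIs, and macrophage-like cells 0, 0 and 2.

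Each gene with a mean of at least 5 CPM over a pair of libraries was counted at 2-fold between them, within a class. In FAP-like cells, Csf1 and Il34 were lower and Csf2ra higher in critical than in uninjured cells, where 10.7% of 10161 genes were lower and 8.96% higher. Csf1 was lower, and Csf1r and Csf2ra higher, in subcritical than in uninjured FAP-like cells (10.9% and 8.17% of 10118 genes), and none of the CSF genes reached 2-fold between critical and subcritical FAP-like cells (0.776% lower and 1.09% higher). With coarser clusters the subcritical over uninjured Csf1 ratio was −0.68, under 2-fold, and the critical over uninjured ratio −1.12. In mural-like cells, Il34 and Csf1r were higher in critical than uninjured cells (17.4% higher, 10.3% lower) and Csf2ra in subcritical than uninjured cells (16.1% higher, 13% lower). Csf1r was higher and Csf2ra lower in critical than subcritical mural-like cells (14.2% and 7.81%). Endothelial-like cells had Csf2rb higher in critical than uninjured (4.8% higher, 5.18% lower) and than subcritical cells (4.49% higher, 3.3% lower), and Csf1r higher in subcritical than uninjured cells (5.62% higher, 7.77% lower). For critical over subcritical, tenocyte-like cells had Csf2ra higher and Csf1r lower (8.47% and 7.77%), myogenic-like cells had Csf1 higher on 6 against 1 UMIs (15.8% higher, 11.7% lower), and macrophage-like cells had 0 CSF genes past 2-fold (4.06% higher, 1.18% lower). The calls of Csf1r and Csf2ra outside leukocytes rested on 1 to 21 UMIs a library or on counts of 0.

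**Figure D3:**
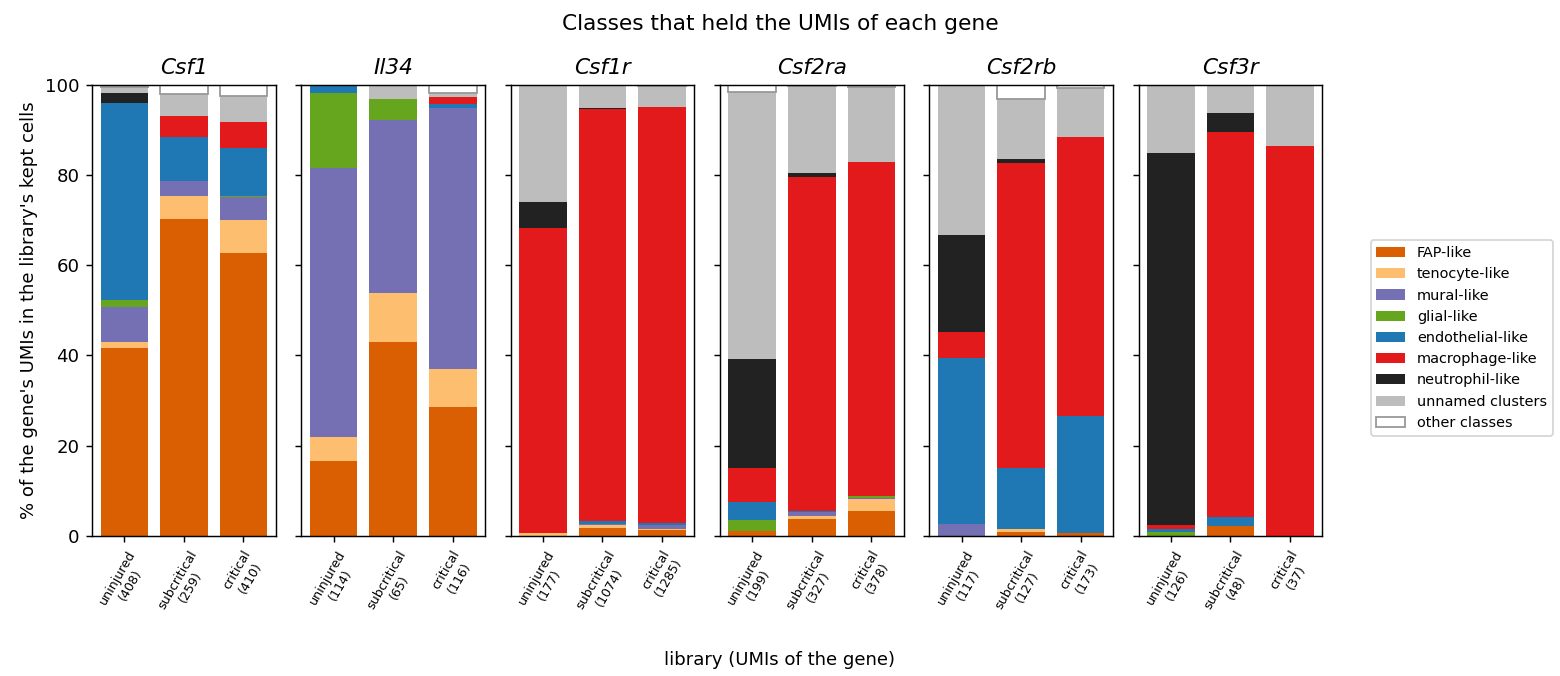
Share of each gene's UMIs (vertical axis, percent of the UMIs in a library's kept cells) held by each class, by library, with the gene's UMI total in brackets. FAP-like cells held 41.7% of Csf1 in the uninjured and 70.3% and 62.7% in the injured libraries, and macrophage-like cells 67.8%, 91.3% and 92.2% of Csf1r.

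The share of a gene's UMIs that a class held depends on its level, its RNA per cell and its number of cells. Of 408 uninjured Csf1 UMIs, FAP-like cells held 41.7% (exact 95% interval 36.8% to 46.6%) and endothelial-like cells 43.9% (39.0% to 48.8%). In the injured libraries, FAP-like cells held 70.3% of 259 and 62.7% of 410 Csf1 UMIs, and endothelial-like cells 9.7% and 10.7%. FAP-like cells were more numerous there and endothelial-like cells fewer. Beside this, Csf1 was 269, 114 and 98.1 CPM in FAP-like and 71.6, 39.4 and 53.4 CPM in endothelial-like cells (uninjured, subcritical, critical). The parts of cell number and level in the shift were not separated. For Il34, mural-like cells held 59.6% of 114, 38.5% of 65 and 57.8% of 116 UMIs, and FAP-like cells 16.7%, 43.1% and 28.4%. In the subcritical library these were 25 mural-like and 28 FAP-like UMIs, with overlapping intervals (26.7% to 51.4% and 30.8% to 56.0%). No larger holder could be named there. For Csf1r, macrophage-like cells held 67.8% of 177 UMIs in the uninjured and 91.3% of 1074 and 92.2% of 1285 UMIs in the subcritical and critical libraries. These totals are not scaled to the libraries, which differed in depth. How many cells of each type were recovered by digestion was not measured.

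Csf1r, the shared receptor of both ligands, stood at 1473 CPM in the 31 uninjured macrophage-like cells (1221 to 1762). It was 866 CPM in 779 subcritical (813 to 922) and 879 CPM in 738 critical macrophage-like cells (829 to 930). Subcritical animals 1 to 4 had 853, 945, 838 and 808 CPM, and critical animals 1 to 4 had 1099, 903, 956 and 692 CPM. The critical animals spread more widely and enclosed the subcritical ones, with means of 912 ± 169 and 861 ± 59.3 CPM (SD, n = 4 each). The edgeR quasi-likelihood test gave a log2 difference of 0.02 ± 0.12 (SE, critical over subcritical, adjusted p = 0.989). Of the 3806 genes tested, 0.946% were called in this comparison (0.473% higher and 0.473% lower). Of the 3 CSF genes that passed the filter 0 were called, 0 had an unadjusted p under 0.05 and 0 were called by DESeq2.

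The same fit held for the GM-CSF receptor. Csf2ra, its ligand-binding chain, was 268, 208, 221 and 196 CPM in subcritical animals 1 to 4 and 240, 249, 215 and 174 CPM in critical animals 1 to 4. The groups overlapped over nearly their whole range, and the log2 difference was −0.07 ± 0.16 (SE, edgeR adjusted p = 0.960). Csf2rb, its signalling chain, was 94, 67, 75 and 75 CPM in subcritical and 60, 71, 66 and 91 CPM in critical animals, with a log2 difference of −0.08 ± 0.23 (SE, edgeR adjusted p = 0.980). Csf2rb and Csf2rb2 are near-identical neighbours, so reads could be split or lost between them and either count is uncertain. Csf3r and Csf2rb2 were too low for the fit. Csf3r was 26.9 ± 9.21 CPM in critical and 36.9 ± 7.34 CPM in subcritical animals (SD, n = 4 each; exact permutation p = 0.171, adjusted 0.411). Csf2rb2 was 34.2 ± 4.89 CPM in critical and 21.6 ± 10.1 CPM in subcritical animals (SD, n = 4 each; exact permutation p = 0.114, adjusted 0.343), and Csf1 in these cells gave an exact p of 0.886.

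Within the macrophage-like class the receptors were unevenly placed. Cluster 13, led by Siglec1 and Mrc1, had 1185 ± 80.9 Csf1r CPM in subcritical and 1259 ± 218 CPM in critical animals (SD, n = 4 each). Cluster 16, led by Mmp12 and with Gpnmb among its leading genes, had 458 ± 60.8 and 506 ± 86.1 CPM. In 8 of 8 injured animals Csf1r was higher in cluster 13. Csf2ra ran the other way in 7 of 8 animals, at 192 ± 55.7 and 157 ± 30.8 CPM in cluster 13 against 265 ± 35.3 and 290 ± 51.1 CPM in cluster 16. Csf3r was higher in cluster 13 in 7 of 8 animals and Csf2rb in 6 of 8. All of cluster 16 held only 7 subcritical and 10 critical Csf3r UMIs. These counts of animals are descriptions, since the clusters were cut from the same cells, though without the CSF genes. How many of all genes ran the same way in as many animals was not counted.

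**Figure D4:**
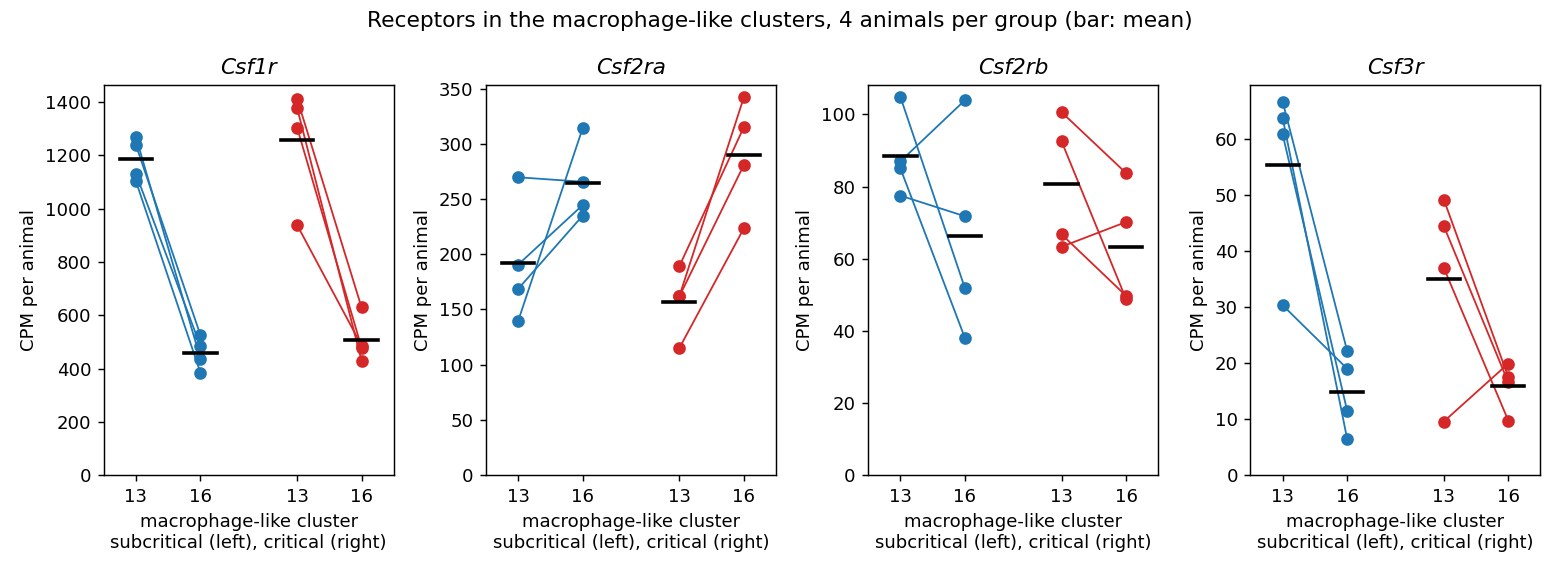
Receptor CPM in macrophage-like clusters 13 and 16, with 1 line per animal, blue for subcritical, red for critical and a black bar for the mean of 4 animals. Every Csf1r line falls from cluster 13 to cluster 16, and 7 of the 8 Csf2ra lines rise.

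The unnamed leukocyte cluster 1 mixed immature myeloid, monocyte and dendritic genes, and it carried Csf2ra at 275, 272 and 272 CPM in uninjured, subcritical and critical libraries. Its Csf1r was lower than in macrophage-like cells, at 107, 227 and 224 CPM. Sub-clusters separated the receptors further. The sub-cluster led by Elane, Prtn3 and Mpo, enzymes of early granulocyte precursors, had 262 Csf2ra CPM and 9.3 Csf1r CPM (56 and 2 UMIs in 26 cells), and the one led by Itgae, Gcsam and Xcr1 had 221 and 23.7 CPM (28 and 3 UMIs in 65 cells). Sub-cluster 1.4, led by Ear2, Mgl2 and genes of antigen presentation, had 547 Csf1r and 419 Csf2ra CPM (64 and 49 UMIs in 75 cells), and monocyte-like sub-cluster 1.2 had 271 and 355 CPM (49 and 64 UMIs in 45 cells). Csf2ra thus appeared with and without Csf1r. In the 22 lymphocyte-like cells of sub-cluster 1.7 both receptors had 0 UMIs. Animal 2 gave most of the 71 uninjured cluster 1 cells, and in the 25 others Csf2ra was 402 CPM.

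Csf3r, the G-CSF receptor, was 327 CPM in uninjured neutrophil-like cells (104 UMIs in 123 cells, 267 to 396), with UMIs in 49.6% of them. Of the tagged ones, 107 came from animal 2, which alone gave 97 of the UMIs and stood at 351 CPM. Animals 1, 3 and 4 had 6, 3 and 0 such cells, and without animal 2 the level was 170 CPM (68.2 to 349) from 7 UMIs in 16 cells. These cells carried Ngp and Ltf, granule genes of immature neutrophils, in 78.5% and 55.7% of the class. The injured libraries held only 22 and 4 neutrophil-like cells, with 2 and 0 Csf3r UMIs, so no comparison across groups was made. There, macrophage-like cells held 85.4% of 48 and 86.5% of 37 Csf3r UMIs, at 36.2 and 23.7 CPM, while the 8 neutrophil markers summed to 5.30 and 14.8 CPM in these macrophage-like cells, with 4 and 2 of them at 0. Uninjured neutrophil-like cells also had 151 Csf2ra CPM and 78.6 Csf2rb CPM, which without animal 2 were 48.4 and 96.9 CPM, from 2 and 4 UMIs.

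Outside the leukocytes, Csf2rb was seen in endothelial-like cells at 17.2 CPM (12.4 to 23.2) in the uninjured, 26.8 (15.6 to 42.9) in the subcritical and 54.6 (39.8 to 73.1) in the critical library. The critical over uninjured log2 ratio was 1.61 (1.03 to 2.31) and the critical library stood 2.04 times above the subcritical one (log2 interval 0.20 to 1.93). Csf2rb2, with which reads could be split, was 15.2, 39.4 and 38.9 CPM in uninjured, subcritical and critical endothelial-like cells. Its critical over subcritical log2 ratio was −0.02 (−0.82 to 0.80). Within clusters, Csf2rb critical over uninjured was 0.83 (−0.03 to 1.69) in cluster 9, 0.43 (−1.02 to 2.21) in cluster 7, led by Prnd, and 2.06 (−1.06 to 4.77) in cluster 3. These intervals include 0, and cluster 2 had 5 uninjured and 0 critical UMIs. Critical over subcritical was 1.32 (0.12 to 2.70) in cluster 9 and 1.43 (0.13 to 3.10) in cluster 7. Venous-type cluster 9 had 104, 74.1 and 186 CPM, from 27, 8 and 23 UMIs, and Csf2rb2 had 108, 167 and 186 CPM there. The cluster held, for Csf1r, 0, 5 and 0 UMIs and for Csf2ra 3, 0 and 0 in uninjured, subcritical and critical libraries, so the beta chains were the main CSF receptor UMIs there. Cluster 9 made up 100 of 1294 uninjured, 98 of 550 subcritical and 79 of 592 critical endothelial-like cells. Cluster 7 held 149, 377 and 364 of them, and capillary-type cluster 3 held 738, 31 and 79. Uninjured Csf2rb was 29.0 CPM in cluster 7 and 4.64 CPM in cluster 3. The part of this makeup in the class ratios was not tested. Over tagged animals, Csf2rb was 13, 20, 13 and 19 CPM in uninjured animals 1 to 4, and 48, 39, 18 and 0 CPM in critical ones (exact permutation p = 0.4, adjusted 0.686, n = 4 each). Critical against subcritical animals gave 26.2 ± 21.5 and 12.1 ± 20.9 CPM (SD, n = 4 and 3; exact permutation p = 0.4, adjusted 0.686). Only 35.6% of critical endothelial-like cells carried a tag and entered that test. For Csf2rb2, the 3 subcritical animals (32.5 ± 7.26 CPM, SD) did not overlap the 4 uninjured ones (10.1 ± 9.57 CPM, SD), at the smallest exact permutation p of 0.0571 (adjusted 0.343). The 4 critical animals, at 19.3 ± 23.6 CPM (SD), overlapped the uninjured ones (exact permutation p = 0.543, adjusted 0.686). The edgeR fit left Csf2rb2 out and called 16.3% of its genes for subcritical over uninjured, by another criterion. How many of all genes lacked overlap between these animals was not counted.

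Receptor UMIs in stromal cells were few. Csf1r in FAP-like cells was 0 CPM in the uninjured, 11.3 in the subcritical and 5.72 in the critical library, found in 2.13% and 1.65% of the injured cells against 62.4% and 72.2% of macrophage-like cells. The 10 macrophage markers summed to 392, 584 and 498 CPM in the same FAP-like cells, with 5, 0 and 0 of them at 0, against 47809 and 42226 CPM in injured macrophage-like cells. Mural-like cells had 28.2 Csf1r CPM in the critical library, with macrophage markers at 1228 CPM there against 99.4 CPM in the uninjured one. The part of free macrophage RNA in these counts was not tested.

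The other ligands of the family were almost unseen. Csf2 had 8 UMIs in all kept cells, 5 of them in critical mural-like cells, and Csf3 had 0, which at this depth does not exclude low levels. Kitl, the ligand of KIT, reached 555 CPM in uninjured endothelial-like cells, and Flt3l, which supports dendritic cells, reached at most 22.3 CPM, in cluster 1. Its receptor gene Flt3 was 129 CPM in critical cluster 1 cells. Sdc1, a syndecan that binds IL-34, was highest in subcritical mural-like cells (228 CPM), and Il3ra, the IL-3 receptor alpha chain, was 42.4 and 50.4 CPM in macrophage-like cells of subcritical and critical libraries.

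Related genes (other ligands and receptors, signalling, regulators, target genes) were followed in 8 lists of 84 genes. In macrophage-like cells 41 of them were tested for critical over subcritical, and edgeR called 0 (0.946% of all 3806 genes), with 6 at an unadjusted p under 0.05 (314 of all genes) and 0 called by DESeq2. Of 18 signal transduction genes 14 were tested, with a median log2 difference of −0.09 against 0.01 over all genes. Tyrobp, the DAP12 adaptor, stood at 2872 CPM in critical and 3173 CPM in subcritical animals, Grb2, an adaptor of CSF1R, at 407 and 422 CPM, and Stat3 at 97.1 and 60.7 CPM. The 5 of 10 negative regulators tested had a median of 0.14. Cbl, the ligase that marks CSF1R for breakdown, was 128 and 94.1 CPM, and Ptpn6, the phosphatase SHP-1, 238 and 286 CPM, while Socs3 was highest in uninjured glial-like cells at 511 CPM. The 9 of 12 myeloid transcription factors tested had a median of −0.04, with Cebpb at 471 and 401 CPM and Runx1 at 146 and 106 CPM. The 6 of 10 CSF1-dependent resident macrophage genes tested had a median of 0.18. Mrc1, the mannose receptor, was 486 and 339 CPM (log2 0.45 ± 0.18 SE, edgeR adjusted p = 0.433), Folr2 315 and 332 CPM, and Adgre1, which encodes F4/80, 265 and 334 CPM. Of 12 GM-CSF-responsive genes 4 were tested (median 0.05), with Bcl2a1b at 140 and 132 CPM. Cd209a was highest in critical cluster 1 cells, at 302 CPM. Of 9 neutrophil genes 2 were tested (median −0.27), and S100a8, S100a9 and Retnlg were highest in uninjured neutrophil-like cells.

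In endothelial-like cells 9 list genes were tested. Klf4 and Car4, 2 of the 9, fell in both injured groups against the same uninjured animals, a count near the share of all genes called (21% and 16.3%). Klf4 fell by 0.92 ± 0.27 on the log2 scale in critical (SE, edgeR adjusted p = 0.0187) and by 1.28 ± 0.33 in subcritical animals (adjusted p = 0.00923). Car4 fell by 1.89 ± 0.32 (adjusted p = 9.29e-05) and 1.19 ± 0.33 (adjusted p = 0.0125). Car4 is a capillary endothelial gene in this tissue, and it leads cluster 3. That cluster was 738 of 1294 uninjured, 31 of 550 subcritical and 79 of 592 critical endothelial-like cells. The part of this makeup in the Car4 difference was not tested. For critical over subcritical, 0 of the 9 were called by edgeR or DESeq2, and 0 had an unadjusted p under 0.05.

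The genes whose levels followed each CSF gene most closely were found from Pearson correlations of log2(CPM + 1) over 23 combinations of class and library with at least 50 cells. The points share libraries and related cell types, so they describe these samples. For Csf1 they were Snx33 (r = 0.91), Cpne8 and Wwtr1 (both 0.88), and for Il34 Fgf1 (0.94), Sox5 (0.93) and Apcdd1 (0.92). Csf1r was closest to Ly86, Cd68 (both 0.95) and Ctss (0.94). Csf2ra was closest to Alox5ap (0.94), Dock2 (0.91) and Snx20 (0.90), and Csf2rb to Plcg2 (0.92), St8sia4 and Mcl1 (both 0.88). Csf3r was closest to Osm (0.97), Fgr and B430306N03Rik (both 0.96).

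The antibody panel offered a second readout of the receptor protein through CD115, the surface name of CSF1R, whose antibody carries the 15-base barcode shown here because its counts are the readout.
CD115 antibody: ttccgttgttgtgag
The values are counts per 1000 counts of the 138 panel antibodies in tagged macrophage-like cells. CD115 was 0.434, 0.651, 1.38 and 0.949 in subcritical animals 1 to 4 and 0.988, 0.449, 0.544 and 0.832 in critical animals 1 to 4. The groups overlapped, at 0.855 ± 0.412 and 0.703 ± 0.250 (SD, n = 4 each; exact two-sided permutation p = 0.571, adjusted over 3 receptor antibodies 0.6). Scaled as a mean centred log-ratio per cell, CD115 was instead higher in critical animals by 0.0773, at the smallest exact permutation p of 0.0286. CD117 (KIT) and CD135 (FLT3) gave exact p values of 0.171 and 0.6. All 3 isotype controls, which bind no mouse target, had higher mean rates than CD115, from 1.19 to 2.25 in the 2 groups, and the IgG2a control itself differed at the smallest exact p of 0.0286. Over whole libraries CD115 was 0.87 and 0.66 in subcritical and critical macrophage-like cells, against 0.51 to 0.60 in endothelial-like cells and 0.66 to 0.76 in FAP-like cells, although Csf1r UMIs separated these classes. The antibody signal was thus below isotype level and close to that of classes with few Csf1r UMIs.

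**Figure D5:**
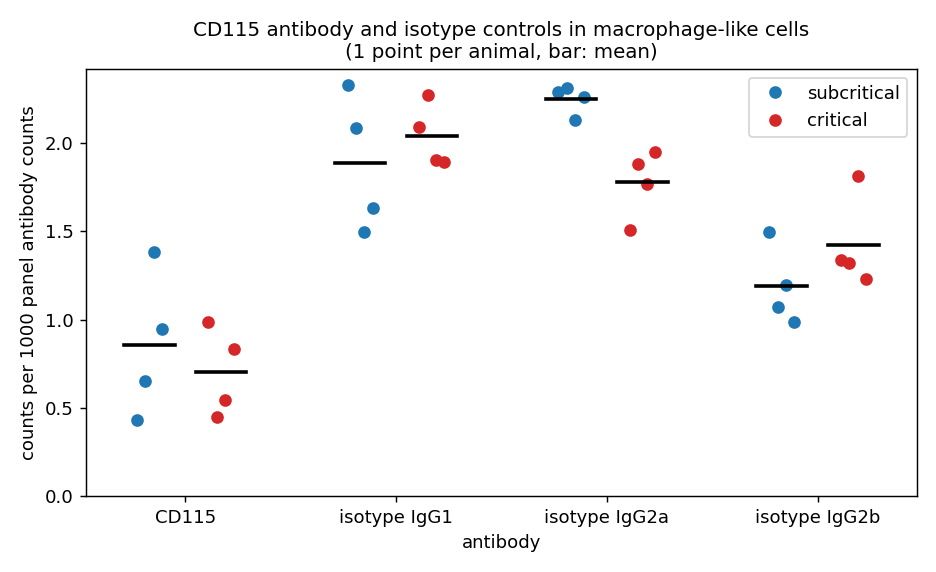
Counts per 1000 panel antibody counts for CD115 and 3 isotype controls in macrophage-like cells, with 1 point per animal (4 per group) and a bar for the mean. The CD115 means of 0.855 (subcritical) and 0.703 (critical) lie below the means of every isotype control.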

How the data were processed

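The authors deposited raw UMI count matrices for 3 libraries, made with cellranger 6.0.2 per the file headers, with 142 antibody features (4 hashtags, 138 panel antibodies). Bcl2fastq, Cell Ranger and GRCm39 are listed in the submitters' processing notes. A cell was kept if it showed 200 or more genes and 500 or more UMIs, with no more than 20% of them mitochondrial, and if it did not carry several hashtags (60, 149 and 177 did). Scrublet called 0, 22 and 3 doublets and so has not worked. A mixture of negative binomials with bounded parameters called the hashtags, with a lowest calling count of 2 to 6, so some calls rest on few counts. Clusters (scanpy 1.11.5, 2000 variable genes without the CSF genes, Leiden resolution 0.8) were named from marker lists. The bounds of the mixture and the naming rule were revised after hashtags and clusters were seen: markers shared within the mononuclear lineage no longer counted against a name, and clusters with a narrow lead and no marker of their own among their top 10 genes stayed unnamed. Genes and lists were chosen with earlier results of these data known.

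UMI counts of animals with at least 20 cells of a class were summed and tested with edgeR 4.0.16 (TMM, filterByExpr, robust quasi-likelihood, Benjamini-Hochberg adjusted p under 0.05). Macrophage-like animals had 150202 to 459468 UMIs and endothelial-like animals 41556 to 636593. The test was tried on simulated data first. Log2 ratios between libraries use a pseudocount of 1 CPM and exact binomial intervals, and shares Clopper-Pearson intervals. List genes are named if they passed the test (at most 4 per list) or were among the 3 highest of a list, and 3 genes are named as most like each CSF gene. Alternatives were DESeq2 1.42.0, other size factors, no filter, leaving out animals, other clusters, cell filters, doublets, hashtag calls and antibody scalings. No promoter of Il34, Csf1r or Csf2rb was used. Some genes that the naming rule selects are not reported here.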

Additional observations from a re-analysis of the deposited data

Results flagged for a closer look

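Of 25 groups of 4 animals in which CSF gene levels or antibody rates were compared with Dixon's criterion, 1 held an animal far from the others, and chance alone flags about 1 group in 20. It was Csf3r in macrophage-like cells of subcritical animal 2, at 25.9 CPM (7 UMIs) against 39.7 to 41.7 CPM in the other 3 animals.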

How the results depend on the processing

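No paired analysis was possible because animals are numbered by hashtag within a library and the numbers link no animals between groups. None of the alternatives run brought Csf1r, Csf2ra or Csf2rb past the threshold in macrophage-like cells. The direction of the small Csf1r difference (0.02) turned to −0.020 with no filter, −0.022 with coarser clusters and −0.070 with stricter hashtag calls, and ran from −0.10 (without critical animal 1) to 0.13 when animals were left out. Csf2ra ran from −0.18 to 0.038 (without critical animal 4) and was 0.13 in cluster 16 alone, and Csf2rb (−0.08) was 0.066 with stricter hashtag calls. The count of 36 called macrophage genes ranged from 22 (without critical animal 2) to 40 when animals were left out, was 23 without subcritical animal 4, 21 in cluster 13 alone and 19 in cluster 16 alone. The endothelial count for subcritical over uninjured (296) ranged from 189 (without subcritical animal 4) to 317 and was 167 with stricter hashtag calls. That for critical over subcritical (13) ranged from 7 (without subcritical animal 1) to 13, was 8 without subcritical animal 4 and 7 with stricter hashtag calls. DESeq2 called 30 macrophage genes and 309, 217 and 13 endothelial genes. The CD115 difference (−0.152) ran from −0.29 to 0.025 (without subcritical animal 3), and the mean centred log-ratio per cell gave 0.0773, on another scale, at the smallest exact permutation p of 0.0286. Csf1 in FAP-like cells over uninjured was −1.12 (critical) and −0.68 (subcritical) with coarser clusters, and −1.03 and −0.88 without the 10 highest cells, which takes a larger share of the 151 uninjured cells than of the others. The causes were not tested. Single-cluster settings were chosen after seeing the data. Levels from fewer than about 10 UMIs are limited by depth.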
